A study of Mus musculus with 4 samples.

Results

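The TRIM genes were the 67 gene symbols, of 23238 in the count tables, that begin with Trim followed by a digit. Of these, 50 had a count in some library and 35 passed the filter on low counts and entered the test, so counts and medians below cover the 35 and not the whole family. Trim12a, Trim30a, Trim30d and Trim34a, called the Trim5-like cluster members here, are described apart from the other 63. They lie near Trim5 on chromosome 7. The family and this split were proposed with the values of these libraries known. The comparison of genotypes is therefore given as a description of the members, with the calls of a fit across all genes, and the number of members called is no independent evidence.

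The study asked how gene expression in activated CD4+ T cells differs when PDK4 is missing. RNA was measured in 2 libraries of PDK4 KO cells and 2 libraries of WT cells. Naive CD4+ T cells of C57BL/6j mice, sorted by MACS (magnetic bead separation) out of lymph nodes and spleen, were all cultured for 48 hours under CD3 and CD28 stimulation plus IL-2. Libraries were made with the Lexogen QuantSeq kit, which reads the 3' ends of transcripts, so that a level in normalised counts scaled to library size (CPM) stands for transcripts without a correction for gene length. The labels do not give the age or sex of the mice, the part of Pdk4 that was deleted, or whether replicates came from separate mice, and a p-value here reflects only how far these libraries differ, which may be technical.

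Total counts were 9739624 and 9104413 in the PDK4 KO libraries and 8837810 and 9575879 in the WT libraries, where 3 counts in a single library stand for 0.308 to 0.339 CPM. Pdk4 had 0 and 2 counts in PDK4 KO and 1 and 0 in WT, at or under that floor, and 3' reads outside a deleted part would persist, so the gene checks nothing about the labels. Of 8 tested CD4 T cell markers 1 rose and 0 fell, with a summed level of 2161 and 2207 CPM in PDK4 KO and 2133 and 2199 CPM in WT. Cd4 was at 269 and 250 CPM in PDK4 KO and at 251 and 254 CPM in WT. Cd5 was the marker that rose, at 322 and 350 CPM in PDK4 KO and 283 and 266 CPM in WT, but not with upper quartile scaling. Cd3d and Cd3g lay lower in PDK4 KO without overlap and were not called. Of 10 tested B cell markers 9 fell, with a summed level of 26.3 and 27.3 CPM in PDK4 KO and 130 and 135 CPM in WT over the 12 listed. The 11 CD8 T and NK cell markers summed to 269 and 253 CPM in PDK4 KO and 420 and 434 CPM in WT (1 of 9 tested fell). Gzma was the marker that fell, at 76.1 and 51.2 CPM in PDK4 KO and 219 and 219 CPM in WT. It made up most of the difference in this sum. The other 8 tested were not called, and the groups overlapped in 5 of the 9. The 13 myeloid markers summed to 12.8 and 21.4 CPM in PDK4 KO and 36.9 and 31.8 CPM in WT (1 of 5 fell). Pax5, Gzmk and Siglech had 0 counts in all libraries. The summed levels of the B cell, CD8 T and NK cell and myeloid markers differed between genotypes. Their part in the TRIM values was not tested. In bulk RNA, a change in the share of cells that express a gene and a change in RNA per cell cannot be told apart.

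TRIM proteins are built from a RING finger, B-box zinc fingers and a coiled coil, followed by a variable C-terminal domain, and most act as E3 ubiquitin ligases, which attach ubiquitin or related modifiers to target proteins. Many are induced by interferons and take part in antiviral defence, others are transcription cofactors or act on the cytoskeleton and organelles. In primates TRIM5 binds retroviral capsids, and the mouse carries a set of duplicated relatives of it in a cluster.

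In PDK4 KO libraries 5 TRIM transcripts were higher, by 1.54 to 1.92-fold, and none passed the test downward. They were the 4 cluster members Trim30a, Trim30d, Trim34a and Trim12a, and Trim25, an interferon-induced ligase outside the cluster. Of the 35 tested members 5 rose, 0 fell and 30 did not pass the quasi-likelihood test of edgeR, with p-values adjusted after Benjamini and Hochberg over all 11464 tested genes and a threshold of 0.05. Of all tested genes 2.66% were called, 1.45% as risen and 1.21% as fallen. At an unadjusted p under 0.05, 10 TRIM genes were higher and 0 lower, against 779 higher and 766 lower among all 11464 tested genes. DESeq2 and limma-voom each also called 0 falls among TRIM genes, and 109 and 146 falls among all tested genes. Fold changes were above 0 on the log2 scale in 26 of the 35, and in 50.1% of all tested genes. The median log2 fold change was 0.28 over the 35 tested TRIM genes and 0.00041 over all tested genes, and it was 0.14 over the 50 TRIM genes with a count when no filter was applied. The summed level of the 67 genes was 1766 and 1779 CPM in PDK4 KO libraries and 1425 and 1422 CPM in WT libraries. The PDK4 KO and WT libraries did not overlap in 19 of the 35, with PDK4 KO above WT in 17 and below it in 2. Among all tested genes PDK4 KO lay above WT without overlap in 21.5% and below it in 21.9%.

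**Figure D1:**
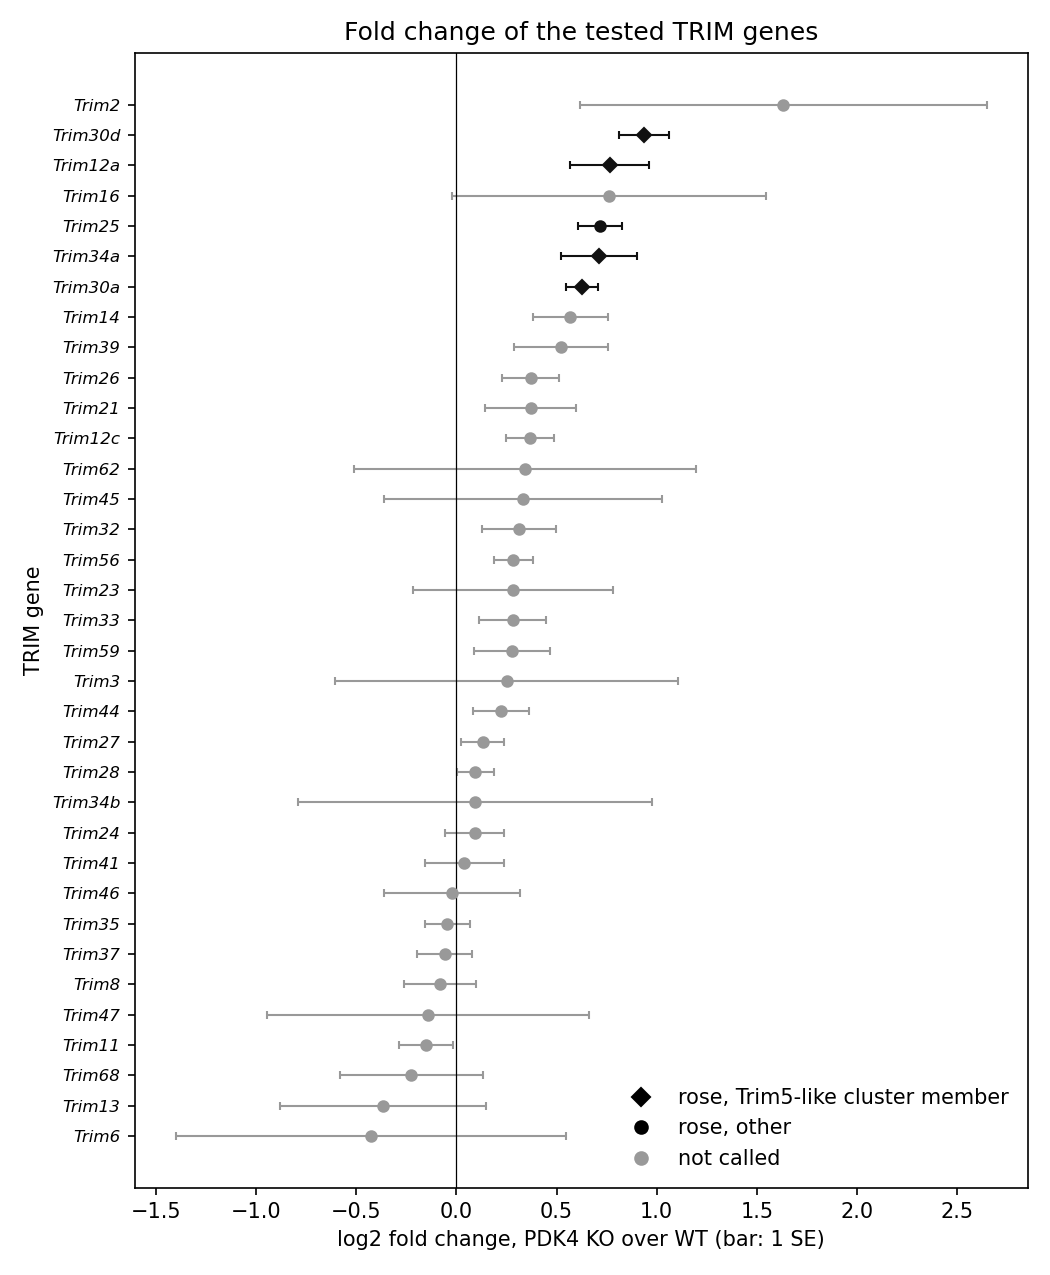
Log2 fold change of the 35 tested TRIM genes, PDK4 KO over WT, with bars of 1 SE from the edgeR fit across all genes. Black symbols passed the test, diamonds are the 4 Trim5-like cluster members, and the widest bars belong to genes with few counts such as Trim2 and Trim6.

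Trim30a, a mouse interferon-induced protein that limits NF-kappaB signalling by degrading TAB2 and TAB3, was the most abundant TRIM transcript in both genotypes. It was at 312 and 316 CPM in PDK4 KO and at 206 and 201 CPM in WT (3054 and 2907 counts against 1814 and 1899). The groups lay far apart relative to the spread within them, at 314 ± 2.83 CPM in PDK4 KO and 203 ± 3.97 CPM in WT (SD, n = 2 libraries each), and the log2 fold change was 0.63 (SE 0.0807, adjusted p = 3.29e-06 in edgeR's quasi-likelihood test). Trim30d lies beside it and is a duplicated relative, known in mouse as a restriction factor of flaviviruses. Trim30d had the largest fold change among the called members, at 85.9 and 95.9 CPM in PDK4 KO and 47.0 and 47.8 CPM in WT. Its PDK4 KO libraries were each well above both WT libraries, and the log2 fold change was 0.94 (SE 0.126, adjusted p = 6.76e-06). Both calls held in all 13 alternative settings, with log2 fold changes of 0.61 to 0.65 for Trim30a and 0.86 to 1.01 for Trim30d.

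Trim34a, the mouse counterpart of human TRIM34, was at 36.1 and 34.8 CPM in PDK4 KO and at 18.3 and 24.9 CPM in WT. The WT libraries differed more from each other than the PDK4 KO libraries did, yet both stayed below them (log2 fold change 0.71, SE 0.189, adjusted p = 0.0309). Trim12a, which is closely related to Trim5, was at 28.6 and 34.4 CPM in PDK4 KO and at 18.4 and 18.6 CPM in WT, and here it was the PDK4 KO libraries that were further apart (0.77, SE 0.197, adjusted p = 0.0242). Both calls depended on single libraries. Trim34a was not called without WT replicate 1 (log2 fold change 0.51, adjusted p = 0.290), PDK4 KO replicate 1 (0.181) or PDK4 KO replicate 2 (0.0915), nor with upper quartile scaling (0.0568) or DESeq2 (0.0857). Trim12a was not called without WT replicate 1 (0.0725), WT replicate 2 (0.122) or PDK4 KO replicate 2 (0.227), nor with DESeq2 (0.0549). The direction was the same in each of these fits.

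**Figure D2:**
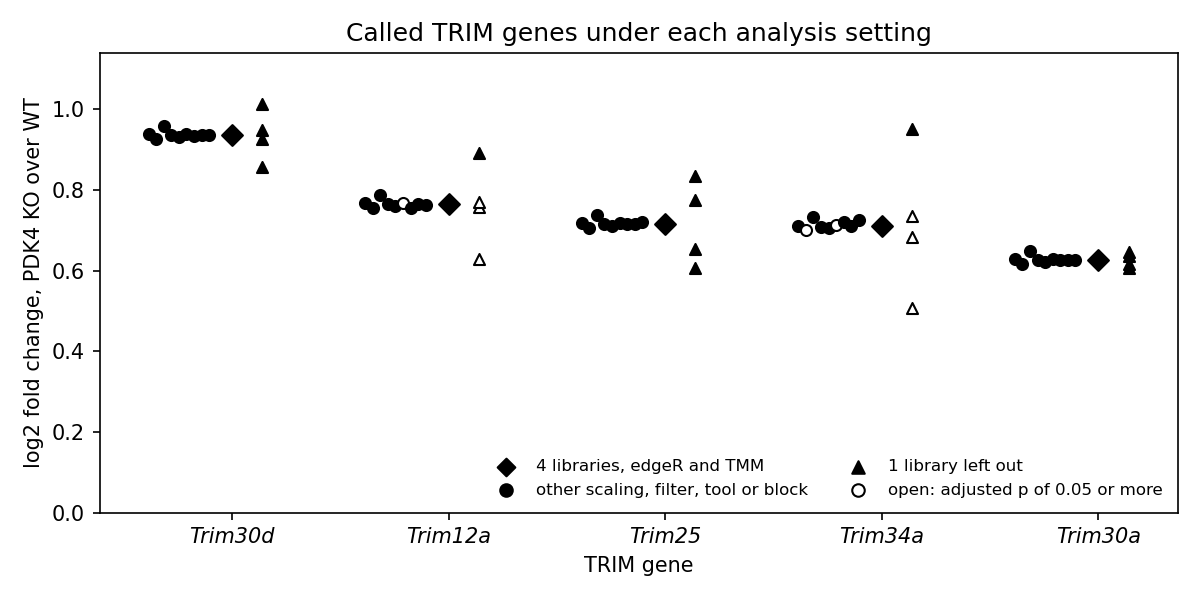
Log2 fold change of the 5 called TRIM genes, PDK4 KO over WT, under each analysis setting, with diamonds for the reported fit, circles for another scaling, filter, tool or the replicate block, and triangles for fits without 1 library. Open symbols have an adjusted p of 0.05 or more and occur only for Trim12a and Trim34a, while all values lie above 0.

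The 4 cluster members belong to a TRIM locus of 11 annotated genes that spans 317 kb, from 104218793 to 104535361 on chromosome 7 (GENCODE vM21, GRCm38), and 9 of these had a row in the count tables. Trim34a runs from 104244457 to 104262234 on the plus strand. Trim12a (104299894 to 104315466), Trim30a (104409025 to 104465193) and Trim30d (104470014 to 104507849) lie on the minus strand. Trim5 and Trim30c were not analysed here.

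The cluster members were not the only transcripts of the locus, and Trim12c, Trim34b and Trim6 were tested and did not pass, while Trim30b and Trim30e-ps1 were too low to test. Trim12c, a near copy of Trim12a that in mouse promotes type I interferon and NF-kappaB responses, was at 83.8 and 82.1 CPM in PDK4 KO and at 64.9 and 63.6 CPM in WT. The groups did not overlap, but the adjusted p was 0.107 (log2 fold change 0.37, SE 0.120), and 0.0858 to 0.376 over the alternatives. Trim34b (7 and 14 counts in PDK4 KO, 11 and 8 in WT), Trim6 (2 and 13, against 5 and 15) and Trim30b (3 and 1, against 10 and 3) were near the detection floor, and Trim30e-ps1, a pseudogene, had 0 counts. Per Trim12a count there were 2.93 and 2.39 Trim12c counts in PDK4 KO libraries and 3.52 and 3.42 in WT libraries. Per Trim30d count there were 3.63 and 3.30 Trim30a counts in PDK4 KO and 4.38 and 4.19 in WT. The locus as a whole held 31.0% and 31.8% of all TRIM counts in PDK4 KO and 25.1% and 25.2% in WT.

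**Figure D3:**
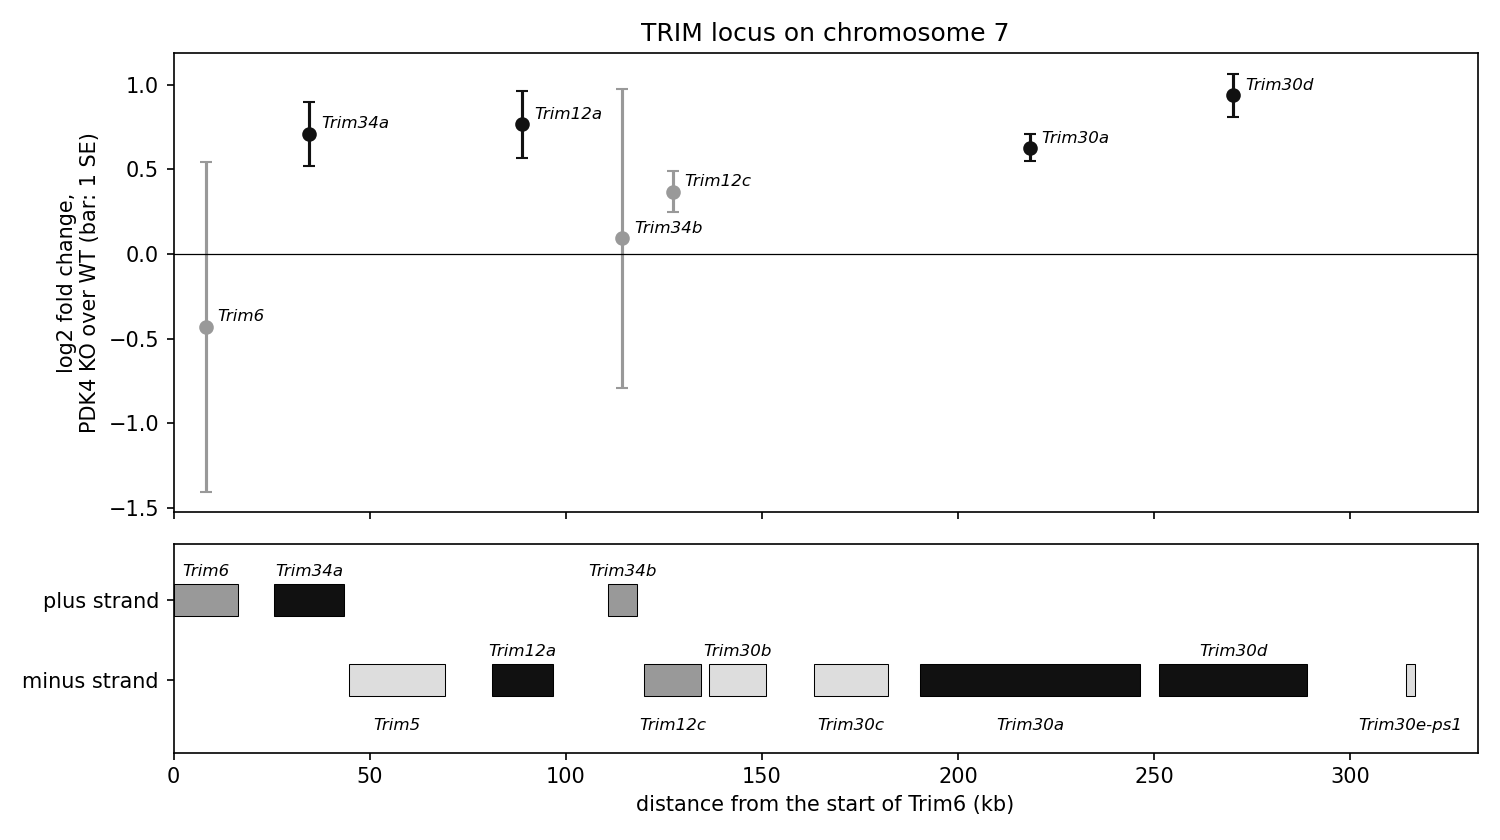
Log2 fold change with 1 SE of the tested genes of the chromosome 7 TRIM locus, PDK4 KO over WT, above a map of the locus in kb from the start of Trim6. The 4 called genes are black, tested genes that were not called are grey, genes that were not tested or not analysed are pale, so that called genes lie on both strands and at several places of the locus.

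Near-identical neighbours can share reads. The last 300 bases of the annotated transcripts were therefore searched for 50-base words that also occur in transcripts of other genes (GENCODE vM21). There were 0 such words for Trim30a and Trim12a. For Trim34b 52.6% of the words occurred in Trim34a. For Trim30d 13.5% occurred in Trim30a or Trim30c, for Trim34a 18.3% occurred in Trim34b, and for Trim12c 16.7% occurred in Trim5 or in predicted genes. The values of these 4 genes are uncertain, since the handling of reads with several matches is not given in the sources used here. The shares of words do not measure how many reads were placed on the wrong gene. Reads from the shared words of Trim30d could also have been counted to Trim30a. On the opposite strand the annotation places the antisense gene Gm47248 (104261465 to 104262174) over the 3' end of Trim34a, Gm15133 (104315019 to 104324838) over the start of Trim12a and the small nuclear RNA gene Gm25405 (104423274 to 104423380) inside Trim30a, away from both ends. Nans lies over the 3' end of Trim14, Dleu2 lies over the 3' end of Trim13, and Zbtb45 lies inside Trim28. Without stated strand use, reads of such pairs cannot be told apart.

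The promoter windows of the 4 cluster members are shown because each holds the core of the interferon-stimulated response element, a sequence known from the promoters of many interferon-induced genes. The core was searched on both strands as GAAA, any 2 bases and GAAA, which reads TTTC, any 2 bases and TTTC from the other strand, in RefSeq windows of 250 bases before and 50 after the gene start (GRCm38.p6), and it is in capitals. Trim25 follows as the called member without it.
Trim30a, chr7:104465144-104465443, minus strand: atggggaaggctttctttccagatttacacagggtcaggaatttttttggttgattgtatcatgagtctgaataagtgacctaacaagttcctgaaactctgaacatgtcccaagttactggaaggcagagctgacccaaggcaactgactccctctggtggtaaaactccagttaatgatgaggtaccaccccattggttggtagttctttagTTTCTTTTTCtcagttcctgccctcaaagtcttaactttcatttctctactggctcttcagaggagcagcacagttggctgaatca
Trim30d, chr7:104507800-104508099, minus strand: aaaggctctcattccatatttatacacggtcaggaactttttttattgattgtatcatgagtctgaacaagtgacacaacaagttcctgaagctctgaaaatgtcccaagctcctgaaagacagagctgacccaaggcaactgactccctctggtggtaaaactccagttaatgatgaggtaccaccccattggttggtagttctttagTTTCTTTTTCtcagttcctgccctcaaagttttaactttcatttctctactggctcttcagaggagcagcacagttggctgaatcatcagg
Trim34a, chr7:104244207-104244506, plus strand: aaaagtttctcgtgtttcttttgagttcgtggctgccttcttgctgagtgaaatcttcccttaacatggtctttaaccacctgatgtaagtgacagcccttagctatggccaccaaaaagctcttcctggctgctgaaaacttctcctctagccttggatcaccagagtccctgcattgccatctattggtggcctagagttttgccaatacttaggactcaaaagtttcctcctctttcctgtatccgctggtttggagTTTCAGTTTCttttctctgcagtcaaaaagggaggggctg
Trim12a, chr7:104315446-104315745, minus strand: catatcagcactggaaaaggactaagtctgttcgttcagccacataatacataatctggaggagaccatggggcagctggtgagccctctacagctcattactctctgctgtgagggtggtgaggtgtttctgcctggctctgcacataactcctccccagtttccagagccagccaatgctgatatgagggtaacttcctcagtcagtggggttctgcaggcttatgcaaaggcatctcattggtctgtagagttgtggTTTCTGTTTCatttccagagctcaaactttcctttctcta
Trim25, chr11:88999153-88999452, plus strand: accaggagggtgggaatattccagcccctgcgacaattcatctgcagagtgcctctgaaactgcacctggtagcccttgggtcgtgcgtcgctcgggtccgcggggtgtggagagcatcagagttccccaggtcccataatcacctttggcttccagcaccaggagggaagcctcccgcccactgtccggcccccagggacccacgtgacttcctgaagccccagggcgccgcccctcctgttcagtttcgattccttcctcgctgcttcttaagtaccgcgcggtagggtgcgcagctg

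The core began at -36 in Trim30a, -41 in Trim30d, 10 in Trim34a and 10 in Trim12a, counted from 0 at the RefSeq gene start. It was present in 3.44% of all 32851 windows of this length, and in 3.14% of the 11114 windows of tested genes. Of the 67 TRIM symbols 51 had a window, and 8 of these held the core in any window, all of them among the 28 tested genes with a window. Some genes have several windows, so counts of genes and shares of windows are not in the same unit. The other 4 were Trim12c, Trim21, Trim26 and Trim2. Windows of duplicated genes are not separate cases, as those of Trim30a and Trim30d were identical over 93.9% of their aligned bases and those of Trim12a and Trim12c over 94.6%. The short stretches around the core, with overlapping cores merged, compare the members that lack a call with Trim12a.
Trim12a: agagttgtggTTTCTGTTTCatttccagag
Trim12c: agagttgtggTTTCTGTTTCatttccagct
Trim21: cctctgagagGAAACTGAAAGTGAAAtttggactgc
Trim26: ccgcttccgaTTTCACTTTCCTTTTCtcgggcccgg
Trim2: tcagctttggTTTCCTTTTCtctaagacag

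The 8 tested members with the core had log2 fold changes of 0.37 to 1.63, with a median of 0.67, and PDK4 KO lay above WT without overlap in all 8. The highest value is that of Trim2, which had 0 and 9 counts in WT and holds the core in 1 of its 5 windows, and without it the range was 0.37 to 0.94 and the median 0.63. Another 4 are the cluster members, which were singled out with their values known. Without them and Trim2, Trim12c, Trim21 and Trim26 were left, each at 0.37 and none called. The 20 tested members with a window but no core ranged between -0.43 and 0.72, with a median of 0.11, and PDK4 KO lay above WT without overlap in 7. Among all tested genes this held for 21.5%. Fold changes of genes outside the family were not compared by presence of the core. Trim11, Trim14, Trim16, Trim3, Trim33, Trim35 and Trim8 had no window. The gamma-activated site was searched on both strands as TTC, any 3 bases and GAA. It was in 8.30% of all windows, a share of windows and not of genes. By gene, 5 TRIM genes held it in any window. Of these Trim45 and Trim46 were tested and neither was called. A match of letters is a description of the sequence and shows no binding.

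Trim25, whose product ubiquitinates the RNA sensor RIG-I and is itself induced by interferon, was the only called member outside the cluster (chromosome 11, 88999376 to 89020293, GRCm38). It was at 125 and 135 CPM in PDK4 KO and at 72.7 and 85.3 CPM in WT, so that both PDK4 KO libraries were above both WT libraries. The log2 fold change was 0.72 (SE 0.111, adjusted p = 6.67e-05), and it was called in all 13 alternatives with values of 0.61 to 0.84.

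Several members with a higher mean in PDK4 KO did not pass the test. Trim14, an adaptor of the mitochondrial antiviral signalling protein MAVS, was at 31.8 and 34.8 CPM in PDK4 KO and at 20.3 and 24.5 CPM in WT (0.57, SE 0.186, adjusted p = 0.112). Trim56, a ligase linked to antiviral sensing, was at 155 and 144 CPM in PDK4 KO and at 130 and 115 CPM in WT (0.28, SE 0.0991, adjusted p = 0.139). Neither pair of groups overlapped, and neither gene was called in any of the 13 alternatives. Trim26, a ligase of the major histocompatibility complex region, was at 51.9 and 59.0 CPM in PDK4 KO and at 45.3 and 40.4 CPM in WT (0.37, adjusted p = 0.207). Trim21, a cytosolic antibody receptor, was at 20.2 and 19.1 CPM in PDK4 KO and at 15.3 and 15.1 CPM in WT (0.37, adjusted p = 0.508). Trim21 was tight within each group, but with 135 to 198 counts a library its SE was 0.227. Trim39, also of the histocompatibility region, was at 23.4 and 17.4 CPM in PDK4 KO and at 15.0 and 13.4 CPM in WT (0.52, SE 0.235, adjusted p = 0.309).

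**Figure D4:**
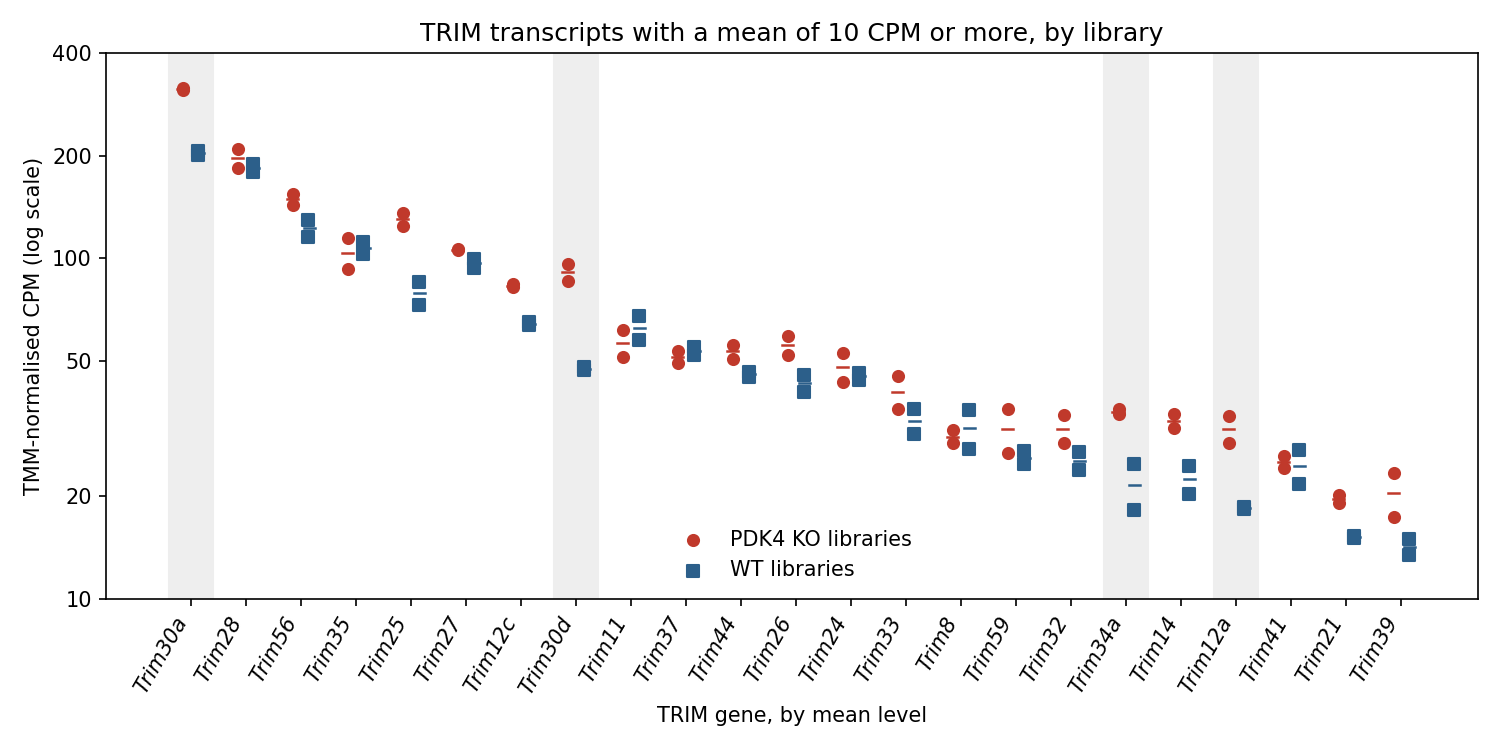
TMM-normalised CPM (log scale) in each library for the 23 tested TRIM genes whose mean is 10 CPM or more, with PDK4 KO libraries as circles left of WT libraries as squares, short lines for the means of 2 libraries, and the 4 Trim5-like cluster members shaded. PDK4 KO lies above WT without overlap in 14 genes, the 4 cluster members among them, below it in 0, and the groups overlap in 9. Among all tested genes, at any level, the shares were 21.5% above and 21.9% below.

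The transcription cofactors of the family did not pass the test. Trim28, the corepressor that KRAB zinc finger proteins bring to retroelements, was second in abundance at 184 and 209 CPM in PDK4 KO and 179 and 188 CPM in WT. The groups overlapped, and the log2 fold change was 0.09 (SE 0.0905, adjusted p = 0.723). Trim24 was at 52.7 and 43.2 CPM in PDK4 KO and at 46.0 and 44.0 CPM in WT (0.09, adjusted p = 0.866), and Trim33, a regulator of TGF-beta and SMAD4 signalling, was at 45.0 and 36.0 CPM in PDK4 KO and at 30.5 and 36.1 CPM in WT (0.28, adjusted p = 0.490). Both overlapped between groups. With SE of 0.0905 to 0.167 these fits leave room for small differences.

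Among the remaining abundant members, Trim27, a negative regulator of CD4+ T cell receptor signalling, was at 106 and 105 CPM in PDK4 KO and at 93.6 and 99.7 CPM in WT (0.13, SE 0.107, adjusted p = 0.669). Trim35 was at 115 and 93.1 CPM in PDK4 KO and at 112 and 103 CPM in WT (-0.05, SE 0.112, adjusted p = 0.918). Trim11 was at 51.2 and 61.4 CPM in PDK4 KO and at 67.7 and 57.4 CPM in WT (-0.15, adjusted p = 0.699), and Trim37, a ligase of peroxisomes and centrosomes, was at 49.3 and 53.3 CPM in PDK4 KO and at 51.8 and 55.0 CPM in WT (-0.06, adjusted p = 0.918). For Trim35, Trim11 and Trim37 the libraries of the genotypes overlapped. The 2 members with PDK4 KO below WT without overlap in CPM were Trim13, an endoplasmic reticulum ligase, with 35 and 29 counts in PDK4 KO and 44 and 35 counts in WT (-0.37, SE 0.514, adjusted p = 0.836), and Trim68, at 6.74 and 6.31 CPM in PDK4 KO and 8.41 and 6.86 CPM in WT (-0.22, SE 0.357, adjusted p = 0.865). Neither passed the test. The order of levels changed between genotypes in the upper part of the family. Trim25 had the fourth highest mean in PDK4 KO at 130 CPM and followed Trim35 (107 CPM) and Trim27 (96.6 CPM) in WT at 79.0 CPM. Trim30d at 90.9 CPM was above Trim12c at 82.9 CPM in PDK4 KO, whereas in WT Trim30d at 47.4 CPM was below Trim12c at 64.2 CPM.

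Grouped by the C-terminal domain of their subfamily, 5 of 20 tested genes of the PRY-SPRY group rose, with a median log2 fold change of 0.37. They were Trim25 and the 4 cluster members, which were singled out with their values known. Among all tested genes 1.45% rose. The PRY-SPRY group holds the Trim5-like genes, of which single members can lack the domain. It was drawn up from general knowledge with these results known. In the other groups 0 genes were called, but each had at most 3 tested genes, too few to set against the PRY-SPRY group. The 3 tested cofactors with a PHD finger and bromodomain had a median of 0.09, the 3 with NHL repeats 0.31, the 3 with an ARF, MATH or filamin domain 0.28, the 3 without a known C-terminal domain 0.22 and the 2 with a transmembrane segment -0.04. Trim46 was the tested gene of the COS box group with fibronectin type III domains (8.28 and 7.07 CPM in PDK4 KO, 8.18 and 7.39 CPM in WT). Of the genes in these other groups, Trim56 was the member with an unadjusted p under 0.05, and DESeq2 and limma-voom called 0.

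Low members gave large fold changes with large errors. Trim2, an NHL repeat ligase of neurons, had 13 and 16 counts in PDK4 KO and 0 and 9 in WT (log2 fold change 1.63, SE 1.02, adjusted p = 0.518), and the fitted value was 0.68 without WT replicate 1 and 6.84 without WT replicate 2, where the lone WT library had 0 counts. Trim16 had 20 and 17 counts in PDK4 KO and 8 and 13 in WT (0.76, SE 0.784, adjusted p = 0.750), and 37.8% of the 50-base words of its 3' ends occurred in Fbxw10. Nothing can be read from either gene at this depth. Another 17 TRIM symbols had 0 counts in every library, 5 had 1 to 3 counts in all, and 10 had more but did not pass the filter. The muscle genes Trim63, Trim54 and Trim55 were in this low set, with 0 counts for Trim63 and at most 5 counts in a library for the others.

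Of TRIM family genes under other symbols, 0 of 6 tested passed in edgeR, with 0 at an unadjusted p under 0.05 and 0 in DESeq2 and limma-voom. The lowest p-values were those of Mid1, a microtubule-associated ligase (6 and 6 counts in PDK4 KO, 10 and 18 in WT, -1.25, SE 0.901, adjusted p = 0.605) and Bspry (20 and 22 counts in PDK4 KO, 31 and 36 in WT, -0.72, SE 0.589, adjusted p = 0.667), both low. Pml, which builds nuclear bodies and is interferon-induced, was at 131 and 141 CPM in PDK4 KO and at 123 and 129 CPM in WT (0.11, SE 0.0985, adjusted p = 0.704).

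Of 19 genes that carry the interferon signal, 3 rose, 1 fell and 15 did not pass, with a median log2 fold change of 0.02. Irf7, the factor that amplifies type I interferon, was at 27.0 and 26.0 CPM in PDK4 KO and at 10.9 and 8.87 CPM in WT (1.42, adjusted p = 0.000143). Stat2 was at 58.1 and 57.7 CPM in PDK4 KO and at 29.9 and 45.3 CPM in WT (0.62, adjusted p = 0.0241), and Irf9 was at 154 and 138 CPM in PDK4 KO and at 119 and 109 CPM in WT (0.36, adjusted p = 0.0434). The inhibitor Socs3 fell (-0.35, adjusted p = 0.0244). Irf7 was called in every alternative run. Stat2 lost its call without WT replicate 1 (log2 fold change 0.35, adjusted p = 0.402), PDK4 KO replicate 1 (0.122) or PDK4 KO replicate 2 (0.0964), with upper quartile scaling (0.0567) or with DESeq2 (0.0876). Irf9 lost it without WT replicate 2 (0.329), PDK4 KO replicate 1 (0.439) or PDK4 KO replicate 2 (0.0577), with upper quartile scaling (0.0781) or with DESeq2 (0.0793). Socs3 lost it without WT replicate 2 (0.172) or PDK4 KO replicate 1 (0.372).

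Among 20 genes of the RNA and DNA sensing pathways on which TRIM proteins act, Ifih1, the sensor MDA5, was the gene that rose, and 0 fell. It was at 20.4 and 15.5 CPM in PDK4 KO and at 8.41 and 6.76 CPM in WT (1.25, adjusted p = 0.00615), and it was not called without WT replicate 2 (0.0843) or PDK4 KO replicate 1 (0.163). Dhx58, a relative of RIG-I, was at 12.0 and 11.5 CPM in PDK4 KO and at 6.14 and 4.96 CPM in WT (1.08, adjusted p = 0.0744). Ddx58, which encodes RIG-I, the target of Trim25, was at 47.3 and 44.5 CPM in PDK4 KO and at 35.9 and 32.3 CPM in WT (0.43, adjusted p = 0.166). Tab2, a target of Trim30a in mouse, was at 288 and 285 CPM in PDK4 KO and at 284 and 292 CPM in WT (-0.01, adjusted p = 0.985). Of 19 tested silencing partners of Trim28, 0 passed in edgeR, DESeq2 or limma-voom, and Chd3 (0.19, adjusted p = 0.304) was the gene with an unadjusted p under 0.05.

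Of 23 genes for ubiquitin enzymes and modifiers that TRIM proteins use, 3 rose and 0 fell. They belong to the ISG15 system, in which an interferon-induced modifier is attached in place of ubiquitin, and Trim25 is known to act as an ISG15 ligase. Isg15, the modifier, was at 62.3 and 77.2 CPM in PDK4 KO and at 24.0 and 23.7 CPM in WT (1.55, adjusted p = 2.81e-08), and Herc6, its main ligase in mouse, was at 33.5 and 29.6 CPM in PDK4 KO and at 19.3 and 18.1 CPM in WT (0.76, adjusted p = 0.0248). Ube2l6, its conjugating enzyme, was at 10.0 and 11.3 CPM in PDK4 KO and at 4.20 and 4.75 CPM in WT (1.25, adjusted p = 0.0470). Usp18, which removes the modifier, was at 33.2 and 24.6 CPM in PDK4 KO and at 18.7 and 19.4 CPM in WT and did not pass (0.60, adjusted p = 0.131). Its activating enzyme Uba7 did not pass (0.07, adjusted p = 0.930). Isg15 was called in every alternative run. Herc6 was not called without WT replicate 2 (0.173), without PDK4 KO replicate 1 (0.233) or with DESeq2 (0.0549). Ube2l6 lost its call whichever library was left out (WT replicate 1 0.157, WT replicate 2 0.137, PDK4 KO replicate 1 0.125, PDK4 KO replicate 2 0.207), with DESeq2 (0.107), limma-voom (0.0712), upper quartile scaling (0.0694) and DESeq2 size factors (0.0523).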

How the data were processed

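Raw counts per gene symbol were deposited by the authors, in a file of 23282 rows for each library, and the 35 symbols on several rows were summed. The submitters' processing notes name Bowtie2, edgeR and mm10, without roles or versions. How reads were counted, with which annotation, strand use and treatment of multiple matches, is not stated there. No molecular identifiers are mentioned, and floors reflect counting error alone. The test of PDK4 KO against WT was made in R 4.3.3 with edgeR 4.0.16 (quasi-likelihood F test, two-sided, TMM, filterByExpr, genotype as the only term, Benjamini-Hochberg over 11464 genes, threshold 0.05). A run on simulated counts with known changes required only that median fold changes were recovered. The simulated counts had no batch effects, so that run is no check of the calls made here. "Rose" and "fell" mean called. Levels are TMM-normalised CPM, and SE is the log2 fold change divided by the square root of F. Alternatives included DESeq2 1.42.0 and limma 3.58.1. Positions and transcripts are from GENCODE vM21 (GRCm38, the assembly of mm10), and all 67 symbols matched. Members, lists and motifs were chosen with earlier results of these data known. Named genes were the cluster members, the locus, called members, the 10 most abundant, tested members with a log2 fold change of at least 0.5 in size, and up to 4 members of each list by smallest p. Trim26, Trim21, Trim24, Trim33, Trim46, Trim13, Trim68, Tab2, Uba7 and other genes outside this rule were chosen after their values were seen.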

Additional observations from a re-analysis of the deposited data

How the results depend on the processing

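Over the alternatives, 92 to 148 genes rose and 75 to 145 fell when 1 library was left out, against 166 and 139 with all 4. The lower counts came without PDK4 KO replicate 1 (92 rises, 78 falls) and without WT replicate 2 (109 rises, 75 falls). The lone library of a genotype was then assumed to vary like the others. TRIM genes called as risen numbered 3 to 4 without 1 library, and cluster members 2 to 3, the lower counts without WT replicate 1 or PDK4 KO replicate 2. DESeq2 called 3 TRIM genes, of which 2 were cluster members. No alternative called a fall among TRIM genes. The cluster's median log2 fold change was 0.74, or 0.68 to 0.86 without 1 library, and 0.86 belonged to the fit without WT replicate 2. The median over tested TRIM genes was 0.14 with no filter, where more low genes entered. Among 3 scalings, filters, tools and library subsets, no called TRIM gene changed direction. Same-numbered libraries did not deviate together (correlation 0.01 across genes). Whether they share a source is not given by the labels, and this correlation cannot decide it. With the replicate block 5 TRIM genes rose, among 142 rises and 118 falls in all, while Irf9 (adjusted p = 0.0532), Ube2l6 (0.0710) and Fam160a2 (0.0668) lost their calls. Depth limits what can be said of TRIM genes under 10 CPM, 12 of the 35 tested.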

Other observations

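RING ligases of T cells outside the TRIM family were tested as another set. The list also held related proteins that are not RING ligases, such as Traf1, and the counts include them. Of 26 tested, 0 passed in edgeR, DESeq2 or limma-voom, with a median log2 fold change of -0.04, and 4 had an unadjusted p under 0.05. Traf1, an adaptor of TNF receptors, was at 244 and 241 CPM in PDK4 KO and at 291 and 279 CPM in WT (-0.23, adjusted p = 0.130 in edgeR). Traf5, another such adaptor, was at 9.91 and 10.0 CPM in PDK4 KO and at 3.30 and 6.97 CPM in WT (0.95, adjusted p = 0.211). Rnf19b was at 209 and 199.8 CPM in PDK4 KO and at 219.9 and 255 CPM in WT (-0.21, adjusted p = 0.255). Cblb, a brake on T cell activation, was at 34.8 and 26.1 CPM in PDK4 KO and at 37.8 and 42.7 CPM in WT (-0.40, adjusted p = 0.277).

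The TRIM locus on chromosome 7 lies among olfactory receptor genes, which made up 104 of the 153 annotated genes within 1 Mb on either side. Only 3 flanking genes were tested. Fam160a2 rose, at 22.6 and 22.2 CPM in PDK4 KO and 14.1 and 11.3 CPM in WT (0.82, adjusted p = 0.0479), and was not called without WT replicate 2 (0.331), PDK4 KO replicate 1 (0.207) or PDK4 KO replicate 2 (0.141), nor with DESeq2 (0.121), its size factors (0.0542) or upper quartile scaling (0.0759). The beta-globin genes Hbb-bs (0.36, adjusted p = 0.770) and Hbb-bt (0.63, adjusted p = 0.561) did not pass. These genes were chosen for their position after the family's values were seen.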
